A study of Mus musculus with 17 samples.

Results

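The glutathione and antioxidant defense genes are a set of 43 mouse genes chosen by symbol. They comprise 18 genes listed as targets of the transcription factor Nrf2, 23 other enzymes and 2 regulators, Nfe2l2 and Keap1. All 43 were found among the 19151 genes of the high-fat diet (HFD) table and among the 24233 genes of the Western diet (WD) table. Their transcripts were measured by RNA-seq in liver and tumor of male mice on a C57BL6 background. NgBR, the product of Nus1, is a subunit of the enzyme that starts the synthesis of dolichol, a lipid needed for protein glycosylation. The N-LKO mice carried loxP sites around exon 1 of the NgBR gene and Cre under the albumin promoter, which is active in hepatocytes, so that other liver cells keep the gene. The HFD libraries came from 4 livers of each genotype, and the WD libraries from 3 livers of each genotype and 3 tumors of N-LKO mice. Both diets lasted 16 weeks after 8 weeks on standard chow, and no group on a standard diet was analysed here. The labels call the samples biological replicates but do not say whether a tumor and a liver came from the same animal.

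Glutathione is a tripeptide made from glutamate, cysteine and glycine that hepatocytes hold at high concentration. Glutathione peroxidases and peroxiredoxins use thiols to reduce peroxides, glutathione transferases attach glutathione to lipid aldehydes and drug metabolites, and superoxide dismutase and catalase dispose of superoxide and hydrogen peroxide. Nrf2, encoded by Nfe2l2, is held at a low level by the adaptor Keap1, which brings it to a ubiquitin ligase. When Keap1 is modified by electrophiles, Nrf2 persists, enters the nucleus with a small Maf protein and binds antioxidant response elements near its target genes.

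Several members are close copies of one another, and this bears on how their reads can be assigned. The coding sequences of Gsta1 and Gsta2 differed at 13 of 666 aligned bases (98.05% identity), and those of Gstp1 and Gstp2 at 12 of 630 (98.1% identity). Of the 45-base words in the longest transcript, 90.4% of those of Gsta1 and 68.2% of those of Gsta2 also occurred in transcripts of another gene, as did 63.3% for Gstp1 and 73.6% for Gstp2. Gpx4 shared 63.0% of its words, all of them with the pseudogene Gpx4-ps2. The 90-base stretches of each pair with the largest number of differing bases are shown to let the reader see how little separates the copies. They are from GENCODE M21 transcripts of GRCm38, run 5′ to 3′, cover coding bases 419 to 508 of Gsta1 and Gsta2 and 1 to 90 of Gstp1 and Gstp2, and have the differing bases in capitals.
Gsta1: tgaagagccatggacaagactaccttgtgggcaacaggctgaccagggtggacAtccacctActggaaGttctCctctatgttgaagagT
Gsta2: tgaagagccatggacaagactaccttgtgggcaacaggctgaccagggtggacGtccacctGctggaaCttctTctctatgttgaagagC
Gstp1: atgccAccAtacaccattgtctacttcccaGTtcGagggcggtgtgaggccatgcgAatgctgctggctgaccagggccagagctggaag
Gstp2: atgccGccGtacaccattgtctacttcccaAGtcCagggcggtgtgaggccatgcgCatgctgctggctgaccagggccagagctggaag

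The letters TGACNNNGC, the core of the antioxidant response element, were searched on both strands in windows from 250 bases before to 50 bases after the RefSeq starts (GRCm38.p6). A window was given for 37 of the 43 members, and Gsta4, Hmox1, Gclc, Prdx6, Gstt2 and Gsr had none. The letters were found in 4 of 14 Nrf2 targets (Gclm, Srxn1, Txnrd1 and Prdx1), in 3 of 21 other enzymes (Gsta3, Mgst1 and Sod1) and in 1 of 2 regulators (Nfe2l2), against 13.99% of 27025 genes. A match describes the window and is no evidence of binding. The stretches that hold the match ahead of the start in 3 of the Nrf2 targets are shown so that the match can be set beside the levels below, and the capitals mark the match, which lies on the strand opposite to the one printed. They cover chr3:122245398-122245457 (Gclm), chr10:82859089-82859148 (Txnrd1) and chr4:116685441-116685500 (Prdx1), each on the plus strand. None of these 3 genes passed the test in any comparison below (lowest adjusted p = 0.104, edgeR, for Prdx1 under HFD). Srxn1, whose match lies 28 bases past its start and is not printed, rose under HFD (adjusted p = 0.036, edgeR).
Gclm: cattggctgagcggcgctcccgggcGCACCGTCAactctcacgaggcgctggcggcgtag
Txnrd1: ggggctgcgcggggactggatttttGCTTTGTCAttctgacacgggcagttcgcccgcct
Prdx1: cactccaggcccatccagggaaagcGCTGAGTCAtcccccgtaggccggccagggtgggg

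HFD libraries held 9096110 to 12215784 counts and WD libraries 15494731 to 20200618, of which the members made up 1.12% to 1.36% and 0.938% to 1.26%. Nus1 ranged, in CPM (the counts of a gene scaled to a common library size), from 82.5 to 96.2 in WT and from 29.4 to 38.0 in N-LKO livers of the HFD table. In the WD table WT livers had 88.2 to 98.9 CPM, N-LKO livers 41.7 to 51.1 CPM and tumors 28.99 to 43.99 CPM. The hepatocyte markers Alb, Apoa1, Ttr, Serpina1c, Cps1 and Hnf4a were expressed in every group, with Alb at a mean of 26519 CPM or more. WT liver replicate 2 under WD stood apart, with the lowest TMM scaling factor (0.806) and low levels of several members, and counts of members called, with the values of some members, are also given without it. Per kilobase of transcript, Mgst1, a microsomal transferase, had the highest mean level of the 43 members in each of the 5 groups (1413 to 2425 CPM per kb), and Slc7a11 and Gpx2 the lowest in the livers (0.224 CPM per kb or less). In bulk tissue, fewer cells of a type and less RNA per cell cannot be told apart.

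**Figure D1:**
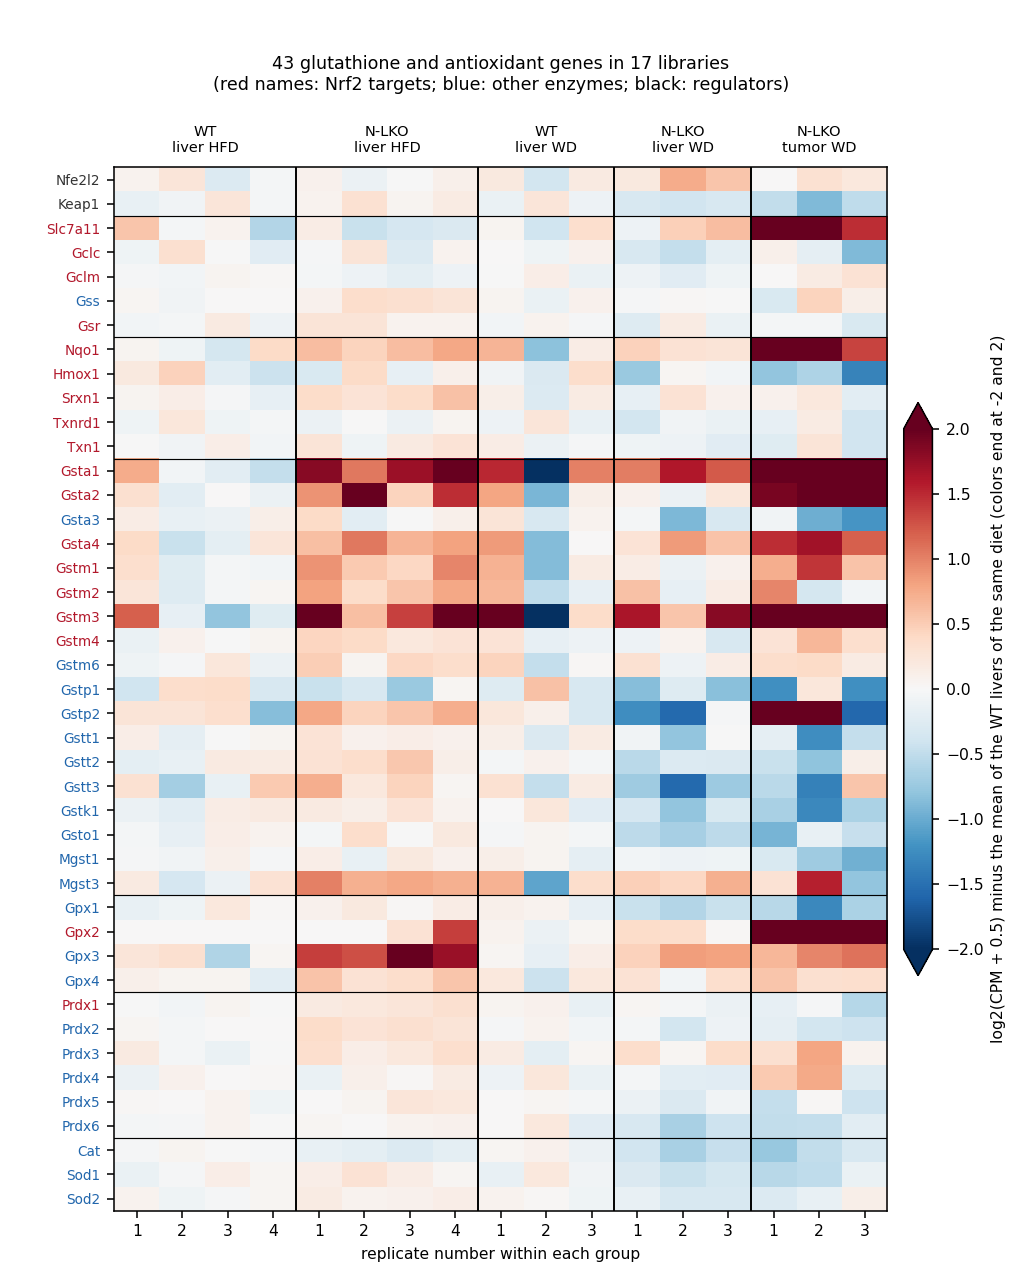
Each row is 1 of the 43 genes and each column 1 of the 17 libraries, and the color gives log2(CPM + 0.5) minus the mean of the WT livers of the same diet. The rows of Gsta1, Gsta2, Gstm3 and Gpx3 are red in the N-LKO livers under HFD, those of Slc7a11, Nqo1, Gsta1, Gsta2, Gstm3 and Gpx2 are red in the 3 tumors, and WT liver replicate 2 under WD is blue for Gsta1, Gsta2, Gsta4, Gstm1, Gstm3, Mgst3 and Nqo1.

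The first comparison asks whether loss of NgBR in the liver went with other levels of these genes under HFD. In N-LKO livers, 10 of the 41 members tested rose and 0 fell (edgeR quasi-likelihood test, adjusted p under 0.05). Of all 13460 genes tested, 2.56% rose and 2.29% fell. Those that rose were 6 of 16 Nrf2 targets, namely Srxn1 and the transferases Gsta1, Gsta2, Gsta4, Gstm1 and Gstm2, and 4 of 23 other enzymes, namely Mgst3, Gpx3, Gpx4 and Prdx2. The median log2 fold change was 0.36 over the Nrf2 targets and 0.15 over the other enzymes, against -0.01 over all genes tested. The groups did not overlap for 16 members that were higher and 1 that was lower, against 7.39% and 7.4% of all genes. Slc7a11 and Gpx2 were too low to be tested.

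The regulators and the glutathione supply genes differed little under HFD. Nfe2l2 was at 67.5, 76.1, 52.8 and 62.3 CPM in WT livers and 68.1, 59.2, 64.0 and 68.9 CPM in N-LKO livers, a log2 fold change of 0.01 ± 0.11 (SE). Keap1 was at 36.05 to 47.4 CPM in WT and 41.3 to 49.6 CPM in N-LKO livers (log2 fold change 0.15 ± 0.10, adjusted p = 0.417, edgeR). The groups overlapped for both. Glutamate-cysteine ligase, the first enzyme of glutathione synthesis, has a catalytic subunit (Gclc) and a modifier subunit (Gclm). Gclc was at 253 to 368 CPM in WT and 244 to 355 CPM in N-LKO livers, and Gclm at 198 to 213 and 179 to 201 CPM (log2 fold changes 0.01 ± 0.13 and -0.11 ± 0.07). Glutathione synthetase (Gss) was at 45.5 to 49.0 CPM in WT and 50.6 to 60.5 CPM in N-LKO livers without overlap, but missed the threshold (log2 fold change 0.26 ± 0.08, adjusted p = 0.0851, edgeR). Slc7a11, the cystine transporter that supplies cysteine, lay between 0.102 and 0.833 CPM in all 8 livers.

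Among the thioredoxin, quinone and heme enzymes, Srxn1 passed the test. Sulfiredoxin, its product, repairs overoxidized peroxiredoxins. Srxn1 was at 51.5, 53.8, 48.7 and 43.8 CPM in WT livers and at 63.5, 59.7, 63.7 and 74.6 CPM in N-LKO livers. The groups did not overlap (log2 fold change 0.40 ± 0.09, adjusted p = 0.036, edgeR). Nqo1, a quinone reductase often used to read out Nrf2, was at 4.90, 4.40, 3.56 and 6.31 CPM in WT livers and 7.46, 6.59, 7.51 and 8.399 CPM in N-LKO livers. Here too no N-LKO liver was as low as any WT liver, and the adjusted p was 0.066 (log2 fold change 0.64 ± 0.18, edgeR; DESeq2 called it). Hmox1, which breaks down heme, was at 10.2 to 19.3 and 11.3 to 18.5 CPM (log2 fold change -0.01 ± 0.21), and Txnrd1, the cytosolic thioredoxin reductase, at 110 to 137 and 108 to 122 CPM (-0.05 ± 0.09).

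The largest log2 fold changes of transferases under HFD were those of Gsta1, Gstm3 and Gsta2. Gsta1, an alpha-class transferase, was at 3.02, 1.53, 1.33 and 1.02 CPM in WT livers and at 6.96, 3.87, 6.42 and 9.599 CPM in N-LKO livers, all 4 N-LKO livers above all 4 WT livers (log2 fold change 1.96 ± 0.35, adjusted p = 0.0142, edgeR). Its near copy Gsta2 was at 8.44, 5.64, 6.67 and 6.11 CPM in WT and 12.8, 28.7, 9.25 and 19.4 CPM in N-LKO livers (1.40 ± 0.30, adjusted p = 0.0268, edgeR). Because the coding sequences of the pair are close to identical, the counts of both genes were also summed, and the sum rose (1.53 ± 0.23, adjusted p = 0.00926, edgeR). Of its 45-base words, Gsta1 shared 47.3% with Gsta2 and 84.2% with Gm3776, and Gsta2 shared 47.2% with Gm10639. Gm3776 and Gm10639 did not enter the sum, so reads divided with them are not covered by it. Gstm3, a mu-class transferase, was at 9.38, 3.35, 2.00 and 3.16 CPM in WT and 17.3, 6.02, 10.7 and 20.9 CPM in N-LKO livers. The highest WT liver lay above the lowest N-LKO liver, and Gstm3 missed the threshold (1.62 ± 0.45, adjusted p = 0.063, edgeR).

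The remaining transferases moved less. Gsta4, which conjugates lipid aldehydes, was at 24.0, 13.4, 16.0 and 21.8 CPM in WT livers and 28.1, 38.6, 29.6 and 32.2 CPM in N-LKO livers (log2 fold change 0.78 ± 0.17, adjusted p = 0.0289, edgeR). Gstm1, the most abundant mu-class member per kilobase, was at 376 to 563 CPM and 591 to 876 CPM (0.71 ± 0.15, adjusted p = 0.0268, edgeR). Gstm2 was at 14.6 to 20.8 CPM and 22.8 to 30.98 CPM (0.64 ± 0.13, adjusted p = 0.022, edgeR). Mgst3, a microsomal transferase outside the Nrf2 list, was at 3.06 to 4.99 CPM in WT livers and rose to 6.88 to 8.62 CPM with the knockout (0.86 ± 0.18, adjusted p = 0.0241, edgeR). None of these 4 genes overlapped between the groups. Of the 18 transferases, 6 rose, 17 had a log2 fold change above 0 and Gstp1 alone had one below (-0.39 ± 0.20, adjusted p = 0.274, edgeR).

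Of the enzymes that remove peroxides, Gpx3 changed most under HFD. Gpx3, a glutathione peroxidase that is secreted, was at 4.38, 4.68, 2.22 and 3.77 CPM in WT livers and at 10.3, 9.64, 17.5 and 13.2 CPM in N-LKO livers. Every N-LKO liver was above every WT liver (log2 fold change 1.73 ± 0.24, adjusted p = 0.00749, edgeR). Gpx4, which reduces lipid peroxides in membranes, was at 35.95 to 44.9 CPM and 50.9 to 62.5 CPM (0.45 ± 0.10, adjusted p = 0.03, edgeR), and Prdx2, a cytosolic peroxiredoxin, at 47.3 to 49.8 CPM and 58.2 to 62.7 CPM (0.31 ± 0.07, adjusted p = 0.0309, edgeR). Catalase (Cat) was the 1 member whose N-LKO livers all lay below the WT livers, at 2721, 2848, 2734 and 2726 CPM in WT and 2474, 2419, 2292 and 2420 CPM in N-LKO livers, and it missed the threshold (-0.20 ± 0.08, adjusted p = 0.182, edgeR).

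Under HFD the log2 fold change fell with transcript length across all genes (Spearman's rho = -0.37 over 13212 genes, a description with no test), and the members were short, with a median of 1457 bases against 2860 bases for the genes tested. With an offset for length and GC content 2 of the 10 calls held, Gsta1 (1.81, adjusted p = 0.0282, edgeR) and Gpx3 (1.64, adjusted p = 0.013, edgeR), while 215 genes of all passed. The other 8 had log2 fold changes of 0.22 (Prdx2) to 1.26 (Gsta2) with the offset, with Srxn1 at 0.39, Mgst3 at 0.73 and Gstm1 at 0.59. The median was then 0.32 over the Nrf2 targets and 0.02 over the other enzymes. Without WT liver replicate 2, 1 member and 179 genes of all passed, where 652 genes passed with all libraries. There were 3 members without WT replicate 4, N-LKO replicate 1 or N-LKO replicate 4 (225, 181 and 322 genes of all), 5 without N-LKO replicate 3 (276 genes) and 6 without WT replicate 3 (596 genes). Gpx3 passed in each of these fits.

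**Figure D2:**
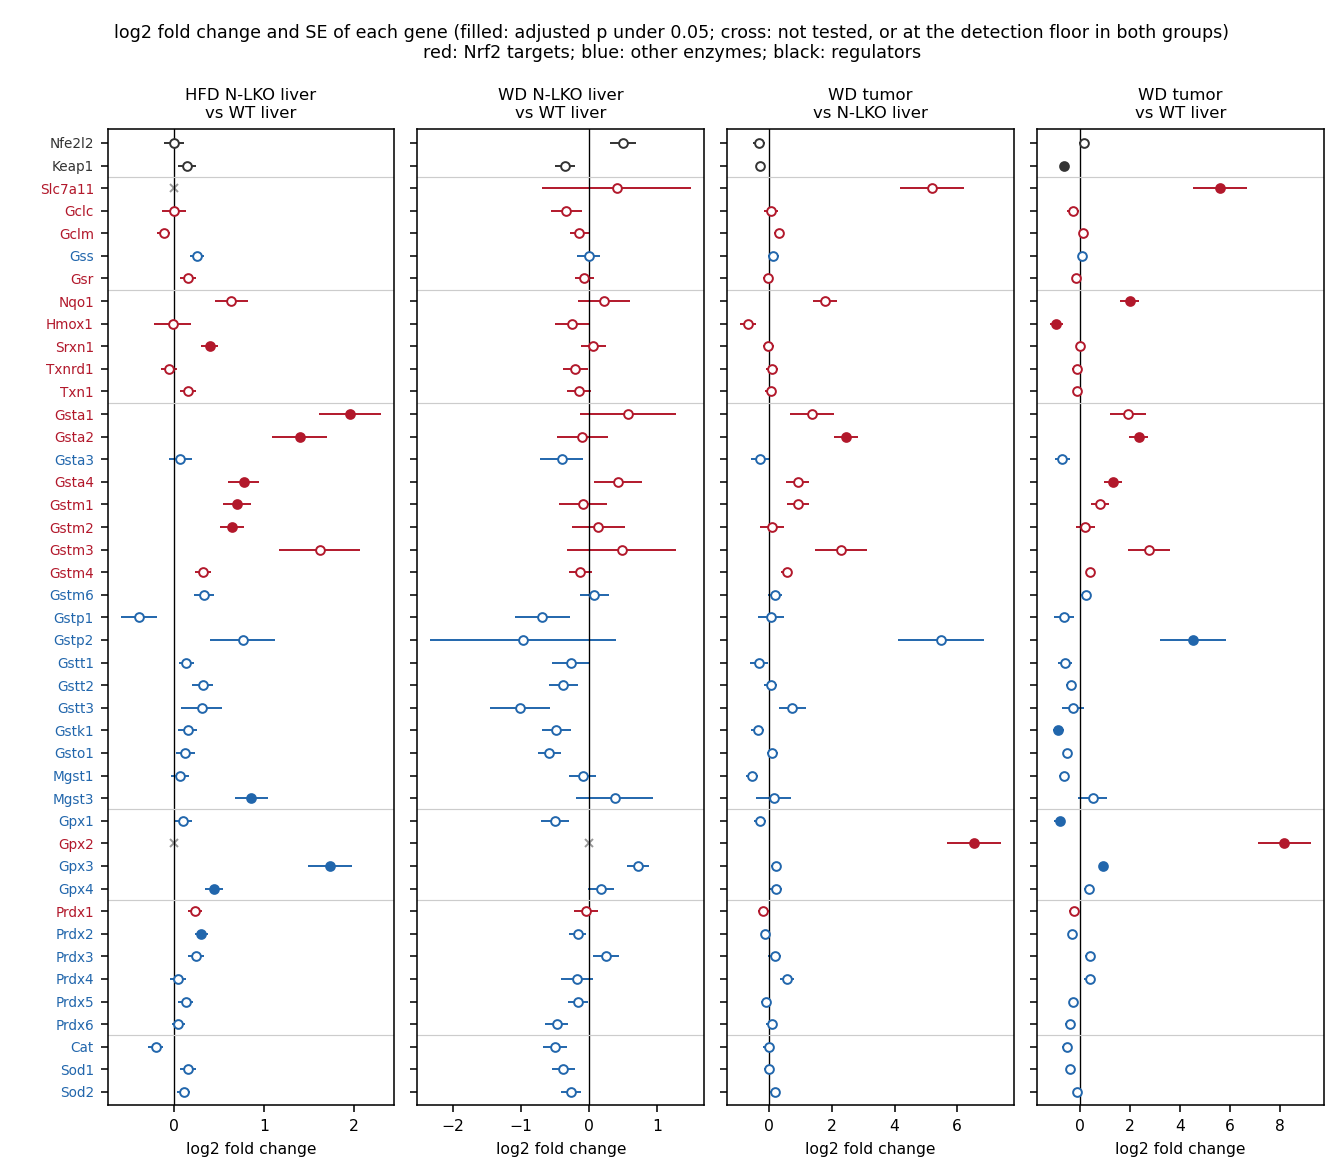
Points give the log2 fold change of each of the 43 genes in 4 comparisons and bars its SE, filled where the adjusted p was under 0.05, with crosses for genes that were not tested or were at the detection floor in both groups. The 10 filled points of the HFD comparison lie to the right of 0, the WD liver comparison has 0 filled points, and the tumor against WT comparison has 7 to the right and 4 to the left. The horizontal scales differ between panels.

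In the second comparison, N-LKO and WT livers were compared under WD. Here 0 of the 43 members passed the test, as did 0% of the 17829 genes in the higher and 0% in the lower direction (edgeR, lowest adjusted p of any gene 0.150). Nus1, the deleted gene, missed the threshold too (log2 fold change -1.02 ± 0.16, adjusted p = 0.151, edgeR), while it passed under HFD (-1.33 ± 0.10, adjusted p = 0.000194, edgeR). A count of 0 under WD therefore does not show that levels were equal. At an unadjusted p under 0.05 there were 10 members and 2212 genes, and with DESeq2 100 genes and 1 member were called. WT and N-LKO livers did not overlap for 2 members that were higher and 12 that were lower in N-LKO livers, against 14.3% and 13.6% of all genes. The lower members were mainly outside the Nrf2 list: the median log2 fold change was -0.26 over the 23 other enzymes and -0.07 over 17 Nrf2 targets without Gpx2, against 0.01 over all genes. Gpx2 was at or near the limit of detection in both groups (0 to 1 count in WT and 1 to 4 counts in N-LKO livers), so no fold is given.

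Gpx3 and Nfe2l2 were the 2 members that were higher without overlap under WD. Gpx3 was at 14.8, 12.8 and 15.7 CPM in WT livers and 19.97, 26.0 and 25.6 CPM in N-LKO livers (log2 fold change 0.72 ± 0.16, adjusted p = 0.353, edgeR). Nfe2l2 was at 86.4, 58.8 and 85.4 CPM in WT and 86.5, 127.5 and 112 CPM in N-LKO livers, where the lowest N-LKO liver barely exceeded the highest WT liver (0.50 ± 0.19, adjusted p = 0.375, edgeR). Keap1 was at 46.5, 60.6 and 47.9 CPM in WT and 41.1, 39.0 and 41.1 CPM in N-LKO livers (-0.35 ± 0.15, adjusted p = 0.388, edgeR). The regulators therefore had opposite signs in this comparison, and both missed the threshold.

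Among the enzymes that were lower without overlap under WD were omega-, theta- and kappa-class transferases, Gpx1, catalase and both superoxide dismutases. Gsto1, an omega-class transferase, was at 61.2, 64.5 and 60.4 CPM in WT livers and 42.9, 39.1 and 42.8 CPM in N-LKO livers (log2 fold change -0.58 ± 0.18, adjusted p = 0.353, edgeR). Gstt3, a theta-class transferase, was at 34.2, 19.5 and 30.95 CPM and 16.6, 9.02 and 16.4 CPM (-1.01 ± 0.44, adjusted p = 0.397, edgeR). Gpx1, the most abundant glutathione peroxidase per kilobase, was at 1299 to 1563 CPM in WT and 974 to 1073 CPM in N-LKO livers (-0.50 ± 0.21), and catalase at 2276 to 2625 and 1584 to 1887 CPM (-0.49 ± 0.18). The summed level of the 6 hepatocyte markers was also lower without overlap, at 44870 to 54718 CPM in WT and 32037 to 39821 CPM in N-LKO livers, and its part in these differences was not tested.

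The Nrf2 targets of glutathione supply and quinone and heme metabolism differed less between WT and N-LKO livers under WD, and of those given here Gclc alone did not overlap. Gclc was at 424, 399 and 450 CPM in WT and 338, 305 and 371 CPM in N-LKO livers (log2 fold change -0.33 ± 0.23), and Gclm at 235, 260 and 216 and at 221, 203 and 223 CPM (-0.14 ± 0.14). Nqo1 was at 11.2, 3.59 and 7.51 CPM in WT and 9.54, 8.35 and 8.19 CPM in N-LKO livers (0.23 ± 0.38, and -0.10 without WT replicate 2), with the wide WT range set by replicates 1 and 2. Srxn1 ranged from 83.3 to 113 CPM in WT and 89.95 to 123 CPM in N-LKO livers (0.07 ± 0.18, and -0.06 without WT replicate 2). Txnrd1 (-0.20 ± 0.18), Hmox1 (-0.24 ± 0.25) and Slc7a11 (0.41 ± 1.09) also overlapped. Without WT liver replicate 2, 0 members passed (1 gene of all) and the medians were -0.07 over the 18 Nrf2 targets and -0.26 over the other enzymes. The median of the 18 Nrf2 targets, Gpx2 included, was -0.05 with all libraries and 0.21 without WT liver replicate 1.

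**Figure D3:**
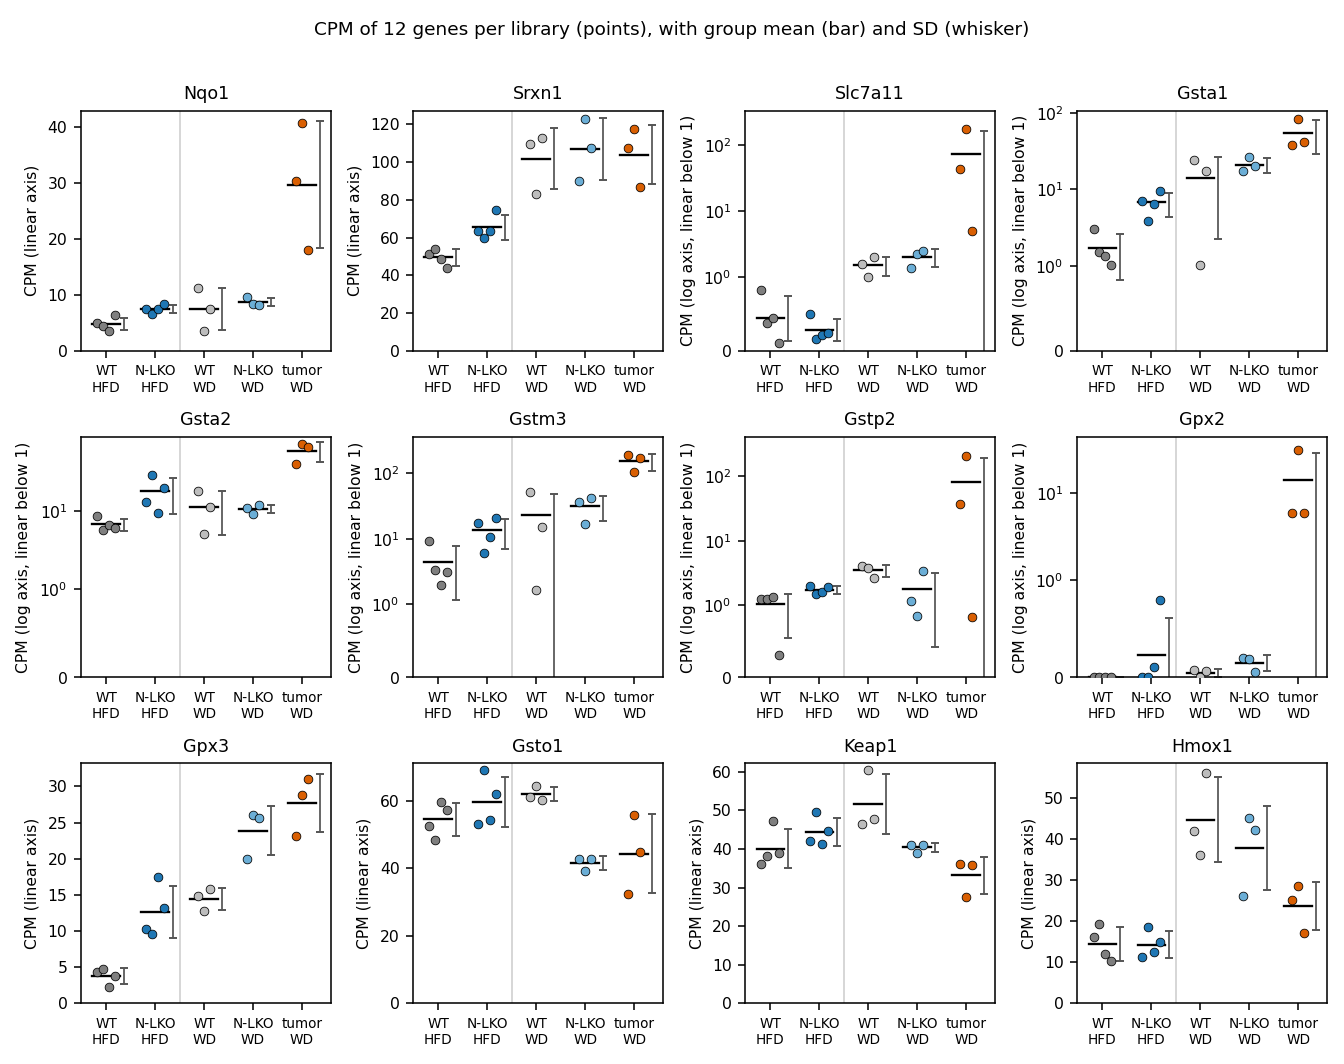
Each panel gives the CPM of 1 of 12 genes in every library as points, with the group mean as a bar and the SD as a whisker (n = 4 under HFD and 3 under WD), on a linear axis or, where the axis says so, on a log axis that is linear below 1 CPM. The 3 tumors lie above all 6 WD livers for Nqo1, Slc7a11, Gsta1, Gsta2, Gstm3 and Gpx2, while tumor replicate 3 lies below all 6 livers for Gstp2.

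The tumors were compared with both groups of WD livers, which share the tumor libraries, so the values are given side by side. Against N-LKO liver, 2 of 43 members rose, Gsta2 and Gpx2, of which Gpx2 entered the test through the tumors alone, and 0 fell (0.437% and 0.0617% of 17829 genes rose and fell). Against WT liver, 7 members rose, namely Slc7a11, Nqo1, Gsta2, Gsta4, Gstp2, Gpx2 and Gpx3, and 4 fell, namely Keap1, Hmox1, Gstk1 and Gpx1 (8.08% and 6.8% of all genes). Tumors did not overlap N-LKO livers for 10 members that were higher and 2 that were lower, against 11.5% and 11.6% of all genes. The 10 were all on the Nrf2 list and included Gpx2, whose separation adds no support because it entered through the tumors alone. That list was drawn up with earlier results of these data known. Against WT livers, 9 members were higher without overlap, Gpx2 among them, and 8 were lower, against 17.7% and 16.4% of all genes. The median log2 fold change of the 17 Nrf2 targets without Gpx2 was 0.29 against N-LKO liver and 0.23 against WT liver, and with Gpx2 it was 0.42 and 0.33 (0.33 against WT liver also with Gpx2 at its lower bound). That of the 23 other enzymes was 0.07 and -0.32, and over all genes it was 0.02 and 0.04.

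Slc7a11 had one of the largest rises. It was at 44.5, 175.4 and 5.06 CPM in the tumors, at 1.37, 2.28 and 2.55 CPM in N-LKO livers and at 1.58, 1.02 and 2.03 CPM in WT livers. Each tumor was above each liver, but the tumors differed among themselves by more than the livers did. The log2 fold change was 5.59 ± 1.07 against WT liver (adjusted p = 0.0133, edgeR) and 5.18 ± 1.02 against N-LKO liver, where it missed the threshold (adjusted p = 0.0614, edgeR). Against WT liver the value was 3.95 without tumor replicate 2, and the call was lost with limma-voom (adjusted p = 0.118) and without WT liver replicate 2 (5.37, adjusted p = 0.0619, edgeR). The other supply genes did not pass. Gclm was at 238, 266 and 288 CPM in tumors (log2 fold change 0.29 ± 0.14 against N-LKO and 0.15 ± 0.14 against WT liver), and Gclc at 455, 372 and 229 CPM (0.06 ± 0.23 and -0.27 ± 0.23).

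Nqo1 and Hmox1, both Nrf2 targets, lay on opposite sides in the tumors. Nqo1 was at 30.4, 40.7 and 17.99 CPM in tumors, above all 6 livers, and rose against WT liver (log2 fold change 2.00 ± 0.38, adjusted p = 0.0133, edgeR). Against N-LKO liver the value was 1.77 ± 0.37 (adjusted p = 0.0743, edgeR). Hmox1 was at 25.2, 28.5 and 17.1 CPM in tumors, at 42.0, 36.01 and 56.1 CPM in WT livers and at 26.0, 45.1 and 42.1 CPM in N-LKO livers. It fell by 0.92 ± 0.26 on the log2 scale against WT liver (adjusted p = 0.0401, edgeR), and against N-LKO liver, with which it overlapped, the value was -0.68 ± 0.26 (adjusted p = 0.206, edgeR). The 2 calls against WT liver were not equally firm. That of Nqo1 held in 16 of 16 alternatives, while that of Hmox1 was lost in 9 of 16, among them the length and GC offset. Srxn1 (86.7 to 117 CPM) and Txnrd1 (150 to 220 CPM) overlapped with both liver groups.

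Of the 7 transferases of the Nrf2 list, Gsta2 rose against both liver groups and Gsta4 against WT liver, while Gstm2, at 49.6, 19.4 and 23.8 CPM in tumors, overlapped with both liver groups. Gsta2 was at 38.7, 70.3 and 65.1 CPM in tumors against 9.16 to 11.8 CPM in N-LKO and 5.09 to 17.7 CPM in WT livers (log2 fold changes 2.46 ± 0.38, adjusted p = 0.0308, and 2.37 ± 0.38, adjusted p = 0.00893, edgeR). Gsta1 was at 37.6, 83.2 and 42.0 CPM in the tumors, while N-LKO livers had 17.2, 26.0 and 19.9 CPM and WT livers 24.2, 1.02 and 17.1 CPM (1.37 ± 0.70 and 1.94 ± 0.72, adjusted p = 0.334 and 0.0935, edgeR). With the counts of Gsta1 and Gsta2 summed, the rise against WT liver passed (2.15 ± 0.53, adjusted p = 0.0266, edgeR) and that against N-LKO liver did not (1.83 ± 0.52, adjusted p = 0.119, edgeR). Gsta4 was at 46.1, 53.3 and 38.0 CPM in tumors against 8.68 to 29.7 CPM in the 6 livers, and rose against WT liver (1.33 ± 0.36, adjusted p = 0.0358, edgeR). Gstm3 was at 191, 103 and 170 CPM in the tumors, while N-LKO livers had 36.5, 17.04 and 41.6 CPM and WT livers 51.6, 1.63 and 15.0 CPM. All 3 tumors exceeded all 6 livers for Gstm3, and it missed both thresholds (2.29 ± 0.82, adjusted p = 0.188, and 2.77 ± 0.84, adjusted p = 0.0517, edgeR).

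Gstp2 was carried by 2 of the 3 tumors. It was at 37.4, 203 and 0.834 CPM in tumors, at 1.17, 0.854 and 3.40 CPM in N-LKO livers and at 4.12, 3.73 and 2.68 CPM in WT livers, so that tumor replicate 3 was below all 6 livers. Its rise against WT liver passed the threshold (log2 fold change 4.52 ± 1.31, adjusted p = 0.0448, edgeR) in spite of that overlap, and the call held in 6 of 17 alternatives. The near copy Gstp1 was at 166, 454 and 165 CPM in the tumors and 309 to 581 CPM in WT livers. The share of the pair's counts given to Gstp2 was 18.4%, 30.9% and 0.503% in the tumors and 0.263% to 1.54% in the WD livers. The sum of both genes had a log2 fold change of -0.26 ± 0.48 against WT liver (adjusted p = 0.744, edgeR). Gstk1, a kappa-class transferase of mitochondria and peroxisomes, was at 44.9, 28.6 and 45.3 CPM in tumors against 70.8, 82.9 and 60.5 CPM in WT livers and fell by 0.85 ± 0.21 on the log2 scale (adjusted p = 0.0273, edgeR).

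Gpx2, the glutathione peroxidase of gastrointestinal epithelium, was nearly absent from the livers and present in each tumor. It had 117, 705 and 113 counts in tumors (5.88, 31.4 and 5.89 CPM), 4, 4 and 1 counts in N-LKO livers and 1, 0 and 1 counts in WT livers. It passed the filter on low counts through the tumors alone. At a floor of 3 counts per library, the mean of the tumors was at least 69.8-fold higher than WT liver and the lowest tumor at least 28.6-fold higher. Against N-LKO liver the ratio of the summed counts, scaled to library size, was 101.8 (exact 95% interval 53.4 to 223, which covers counting error only). Tumor replicate 2 held most of the tumor counts, and without it the ratio was 39.4 (20.4 to 87.4). Of its 45-base words, 21.02% also occurred in the pseudogene Gpx2-ps1. Under HFD, 10 counts in 1 N-LKO liver and 1 count in another were seen, and 0 in the 4 WT livers.

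The other peroxidases and the regulators moved less in tumors. Gpx3 was at 23.2, 28.9 and 30.97 CPM, above all 3 WT livers (log2 fold change 0.94 ± 0.16, adjusted p = 0.0111, edgeR) but overlapping with N-LKO livers (0.21 ± 0.16, adjusted p = 0.515, edgeR). Gpx1 was at 996, 600 and 936 CPM and fell by 0.80 ± 0.21 on the log2 scale against WT liver (adjusted p = 0.0316, edgeR). Keap1 was at 36.1, 27.6 and 35.8 CPM, below all 6 livers, and fell by 0.64 ± 0.15 on the log2 scale against WT liver (adjusted p = 0.0227, edgeR). Against N-LKO liver Keap1 had a value of -0.29 ± 0.15 (adjusted p = 0.342, edgeR). Nfe2l2 was at 76.5, 93.4 and 87.9 CPM in tumors and overlapped with both liver groups.

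The tumor counts depended on single libraries. Against N-LKO liver, 0 members passed without any 1 of the 3 N-LKO livers, where 3 to 6 genes of all passed, against 89 with all libraries. There was 1 member without WT liver replicate 3 or tumor replicate 2 (26 and 52 genes), 3 without WT replicate 2 or tumor replicate 3 (61 and 30 genes), and 6 without tumor replicate 1, where 2193 genes of all passed. Against WT liver, 7 passed without WT or N-LKO liver replicate 3 (1531 and 1654 genes), and 4 without WT liver replicate 2. The 4 were Nqo1 (1.67, adjusted p = 0.039), Gsta2 (2.02, adjusted p = 0.0262), Gpx3 (0.85, adjusted p = 0.0453, edgeR) and Gpx2, which entered the test through the tumors alone. Over all genes 569 passed without WT liver replicate 2, against 2653 with all libraries. Gsta4 was then at 0.99 (adjusted p = 0.0788) and Gsta1 at 1.39 (adjusted p = 0.0674, edgeR). Of the 6 cholangiocyte markers, 3 rose in tumors against WT liver, with a summed level of 197 to 524 CPM in tumors, 115 to 151.6 CPM in N-LKO and 17.4 to 69.7 CPM in WT livers. The defining markers Krt19 and Krt7 were at means of 0.479 and 0.398 CPM in tumors, and Spp1 and Sox9 made up most of the sum. The hepatocyte markers summed to 34404 to 60239 CPM in tumors and 44870 to 54718 CPM in WT livers, 2 of 6 fell against WT liver (Hnf4a and Ttr), and all 6 had a value below 0, with a median of -0.77. The part of these cell types in the results was not tested.

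**Figure D4:**
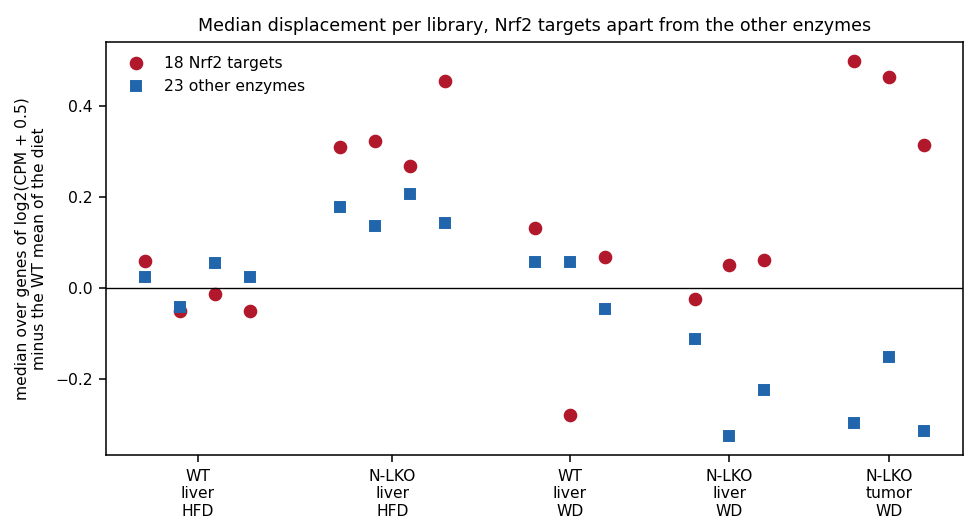
Circles and squares give, for each of the 17 libraries, the median over 18 Nrf2 targets, Gpx2 included, and over 23 other enzymes of log2(CPM + 0.5) minus the WT mean of the same diet. The Nrf2 targets lie at 0.27 to 0.45 in N-LKO livers under HFD and at 0.31 to 0.50 in tumors, where the other enzymes lie at -0.31 to -0.15, and in WT liver replicate 2 under WD the Nrf2 targets lie at -0.28.

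The genotype difference was set side by side for the diets, and an interaction term fitted to the 14 livers tested how far it differed. Of the 41 members tested under both diets, 40 had a lower log2 fold change under WD than under HFD, the exception being Nfe2l2, and the medians were 0.16 under HFD and -0.14 under WD. The share of all genes that were lower under WD was not counted. With an offset for length and GC content, 35 of 42 members were below 0 in the interaction. One member passed the interaction test, Gsto1 (-0.69 ± 0.14, adjusted p = 0.0308, edgeR), and it was lower, while 0.587% of 15850 genes were called higher and 1.03% lower. Gsto1 was at 52.6, 48.6, 59.6 and 57.3 CPM in WT livers on HFD, against 53.1, 69.3, 54.3 and 62.1 CPM with the knockout, so these groups overlapped, and it was lower without overlap under WD. At an unadjusted p under 0.05 there were 16 members, 15 of them lower, and 3171 genes of all. The next were Gstt2, a theta-class transferase (-0.67 ± 0.17, adjusted p = 0.0539), and Prdx2 (-0.45 ± 0.12, adjusted p = 0.0598, edgeR). The median interaction was -0.32 over 17 Nrf2 targets and -0.45 over 23 other enzymes, against 0.00 over all genes. The 6 hepatocyte markers were all below 0 in the interaction, with a median of -0.47 against -0.37 over the 42 members, and their part was not tested.

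The interaction also varied with transcript length across genes (Spearman's rho = 0.34, a description). With the offset for length and GC content, 0 members and 1 gene of all passed, Gsto1 was at -0.47 (adjusted p = 0.161, edgeR), 35 of 42 members were below 0 and their median was -0.27. Without WT liver replicate 2 under WD, 0 members passed (66 genes of all), and Gsto1 was at -0.68 (adjusted p = 0.064, edgeR). Diet and table cannot be told apart, so levels were not compared between the diets.

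**Figure D5:**
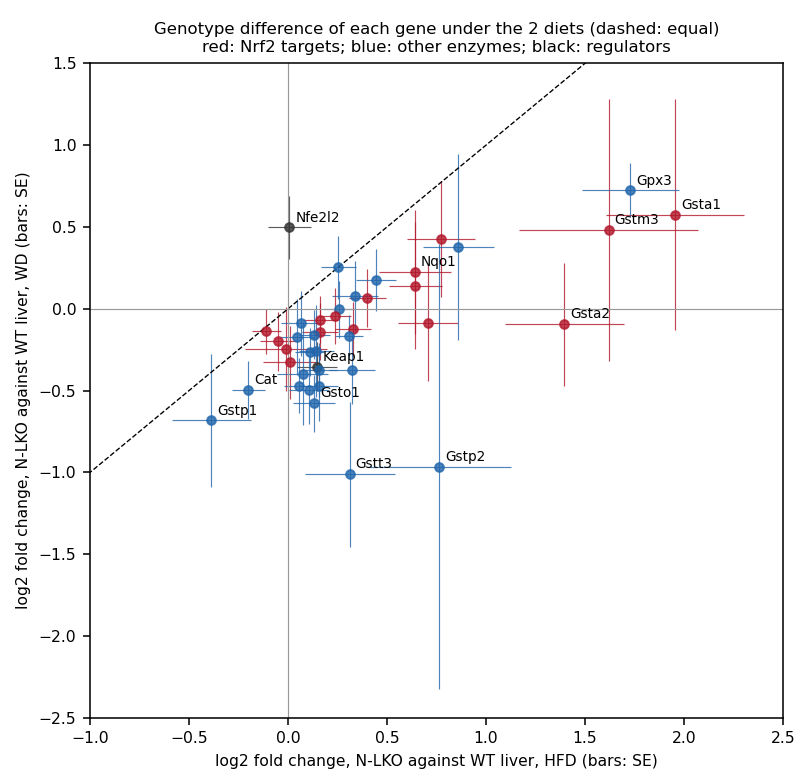
Each of the 41 genes tested under both diets is placed by its log2 fold change of N-LKO against WT liver under HFD (horizontal) and under WD (vertical), with bars for the SE. Nfe2l2 is the 1 gene above the dashed line of equal values, and Gsta1, Gsta2, Gstm3, Gstt3 and Gstp2 lie farthest below it.

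Genes of the same pathway that are not among the 43 were counted for comparison. Under HFD, 1 of 17 other Nrf2 targets rose (Fth1, ferritin heavy chain, 0.36 ± 0.09), 1 of 9 glutathione turnover genes rose (Ggct, which cleaves gamma-glutamyl peptides, 0.68 ± 0.14), and of 16 other redox enzymes 3 rose (Glrx3, Glrx5 and Txn2) and 1 fell (Txnip, an inhibitor of thioredoxin, by 0.60 ± 0.14 on the log2 scale). None of 5 other glutathione transferases and none of 6 Nrf2 partners and repressors passed (edgeR, adjusted p over all genes). Of these, 3 and 1 had an unadjusted p under 0.05. Over all 13460 genes tested under HFD, 2.56% rose, 2.29% fell and 3053 had an unadjusted p under 0.05. Under WD, 17 other Nrf2 targets, 6 partners and repressors, 6 other transferases, 9 turnover genes and 17 other redox enzymes were tested. Between N-LKO and WT liver 0 of these genes passed, as did 0 of all 17829 genes. At an unadjusted p under 0.05 there were 8 of these genes, against 2212 of all genes. In tumors, Ggct rose against both N-LKO liver (1.86 ± 0.31, adjusted p = 0.0375) and WT liver (2.00 ± 0.32, adjusted p = 0.00839, edgeR). Against WT liver, Cbr3, a carbonyl reductase (3.17 ± 0.78), Abcc4, an exporter of conjugates (2.11 ± 0.57), and Pgd of the pentose phosphate pathway (0.98 ± 0.28) rose among the 17 other Nrf2 targets and Ftl1, ferritin light chain, fell by 0.70 ± 0.17 on the log2 scale. Of 9 turnover genes Oplah and Slc25a39 fell, and of 17 other redox enzymes 1 rose (Gpx7, 2.17 ± 0.47) and 4 fell (Glrx, Msrb1, Sod3 and Txnrd3). Of 6 other transferases Gstm5, Gstp3 and Hpgds rose, and Bach1, a repressor that competes with Nrf2, fell by 0.51 ± 0.15 on the log2 scale. Over all genes in tumors, 8.08% rose and 6.8% fell against WT liver, and 0.437% rose and 0.0617% fell against N-LKO liver.

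Marker lists of other cells moved in some of the same comparisons. Under HFD, the cholangiocyte list summed to 20.6 to 38.4 CPM in WT and 54.7 to 100.1 CPM in N-LKO livers (1 of 2 tested rose, Spp1) and the stellate cell list to 26.1 to 66.8 and 54.5 to 93.3 CPM (1 of 6 rose). The Kupffer cell and macrophage list summed to 113 to 169 CPM in WT and 61.4 to 125 CPM in N-LKO livers. Of its 7 markers tested 2 fell, while 1 had a value above 0 (log2 fold change 1.40). Of 6 endothelial markers 1 fell. Over all genes tested under HFD, 2.56% rose and 2.29% fell. In tumors against WT liver 1 of 5 T and B cell markers rose, at a summed 7.94 to 12.9 CPM against 3.26 to 4.71 CPM. Of 8 Kupffer cell and macrophage markers 2 fell, while 3 had a value above 0. Of 6 endothelial markers 1 rose and 1 fell, and 0 of 3 neutrophil markers passed. Over all genes in this comparison, 8.08% rose and 6.8% fell. Between N-LKO and WT liver under WD 0 markers of any list passed, and Sox9 was the 1 marker that rose in tumors against N-LKO liver. The part of these cells in the values of the members was not tested.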

How the data were processed

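RNA from 17 liver and tumor samples had been depleted of ribosomal RNA and sequenced, and 2 gene tables, 1 per diet, were used. The authors deposited estimated counts per gene, which need not be whole, so reads of near copies may have been divided between genes. The submitters' processing notes name STAR, Partek and mm9, whereas the study's methods name TopHat2, and the positions in the tables match GRCm38 (43 of 43 members start where GENCODE M21 places them). A small RNA library kit is named in the labels. Whether counting used strand was not given in the sources used here, so reads of overlapping and antisense genes cannot be told apart.

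The deposited estimated counts were rounded to whole numbers, genes with low counts were removed (filterByExpr) and libraries were scaled by TMM. Each table was fitted with edgeR 4.0.16 (R 4.3.3, quasi-likelihood test), and p-values were adjusted by Benjamini-Hochberg over all genes tested. Each diet was fitted on its own, with WT liver, N-LKO liver and tumor in 1 fit under WD. The interaction used the 14 livers and genes of both tables. The SE is approximate, being derived from the log2 fold change and its F statistic. CPM were computed from the counts with TMM scaling, the color plot and the library medians used a pseudocount of 0.5 CPM, and the floor was 3 counts. Intervals and floors cover counting error only. The depth of 9096110 to 20200618 counts per library limits the precision of low genes such as Slc7a11 and Gpx2.

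Members were chosen by symbol, and the division into Nrf2 targets and other enzymes is from textbook knowledge. The members and lists were chosen with earlier results of these data known. Full values were given for members past the threshold, for members without overlap whose log2 fold change was 1 or more in either direction, and always for Nfe2l2, Keap1, Nqo1, Gclc, Gclm, Hmox1, Srxn1, Txnrd1 and Slc7a11. Other members and single cell type markers were named after their values were seen. Alternatives were DESeq2 1.42.0, limma-voom (limma 3.58.1), other scaling and filters, a replicate block, an offset for transcript length and GC content (spline with 5 degrees of freedom), fits of only the 2 groups compared, and leaving out each library. Summed paralogs and the Gpx2 ratio without 1 tumor were added after seeing the data. The tests were also run on simulated counts, with the same spread given to every gene of a fit and no outlying library. That run does not show how the tests handle the spread of these libraries. Promoters are from RefSeq (GRCm38.p6). No table column lacked a sample, and columns of the authors' comparisons were not used.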

Additional observations from a re-analysis of the deposited data

Results flagged for a closer look

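In 3 of 82 groups of 4 libraries tested, 1 library lay far from the others, where chance alone gives about 1 in 20. Txnrd1 was at 137 CPM in WT liver replicate 2 under HFD against 110.0 to 114.2 CPM in the other WT livers. Gstp2 was at 0.306 CPM in WT liver replicate 4 under HFD against 1.24 to 1.33 CPM in the others. Catalase was at 2848 CPM in WT liver replicate 2 under HFD against 2721 to 2734 CPM in the others. Gsto1 was picked out by its interaction of -0.69 on the log2 scale (adjusted p = 0.0308, edgeR). The call was lost in 10 of 20 alternatives, among them the length and GC offset (-0.47, adjusted p = 0.161, edgeR), and diet and table cannot be told apart.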

How the results depend on the processing

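Of the 24 member results past the threshold, Gpx3 under HFD and Nqo1, Gsta2 and Gpx3 in tumors against WT liver passed under every alternative tried. So did Gpx2 in tumors against WT liver, but it entered the test through the tumors alone, so its passing is no separate support. Across all 24 results and their alternatives 253 values kept direction and call, 119 lost the call and 1 turned its sign. That was Gstp2 in tumors against WT liver, at -0.26 when summed with Gstp1. Under HFD the members called were 10, with 2 under the length and GC offset (215 genes of all) and 1 to 11 when 1 library was left out (179 to 597 genes). The median of the other enzymes was 0.024 with the offset and 0.12 to 0.20 with 1 library left out. Between N-LKO and WT liver under WD, DESeq2 called 1 member, the count was 0 whichever library was left out, and the medians were then -0.079 to 0.21 for the Nrf2 targets and -0.38 to -0.19 for the other enzymes. In tumors against N-LKO liver the count of 2 became 6 with DESeq2 (1021 genes of all), 1 with limma-voom (18 genes) and 1 with only the 2 groups fitted (29 genes). With 1 library left out it was 0 to 6 (3 to 2193 genes), and the median of the other enzymes was then -0.066 to 0.13. Against WT liver the count of 11 became 5 with only the 2 groups fitted (705 genes of all), and 0 of the members called there were lower. With 1 library left out it was 4 to 13 (569 to 3819 genes), and the median of the Nrf2 targets was then 0.24 to 0.61. Of the interaction, 10 members were called with DESeq2 (981 genes of all), 2 with limma-voom (308 genes) and 0 with the offset (1 gene). With 1 library left out 0 to 3 were called (22 to 330 genes), and the medians were then -0.46 to -0.23 for the Nrf2 targets and -0.48 to -0.33 for the other enzymes (-0.28 with the offset). Members without overlap numbered up to 19 without tumor replicate 2 against N-LKO liver and up to 26 without tumor replicate 3 against WT liver, since fewer libraries overlap less. The shares of all genes without overlap were not counted in these fits, so these numbers cannot be set against them. Other causes of the shifts in these counts and medians were not tested.

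Same-numbered libraries deviated together with correlations of -0.08 to 0.12 under HFD, where libraries of different number had -0.26 to 0.15. Between WD livers these values were 0.06 to 0.07 and -0.14 to 0.12. Between tumors and N-LKO livers they were 0.00 to 0.12 and -0.14 to 0.08, and between tumors and WT livers -0.14 to 0.02 and -0.08 to 0.16. The labels do not say that same-numbered libraries share an animal, so these values do not settle whether a tumor and a liver did. With a replicate block, 1 member passed in tumors against N-LKO liver (36 genes of all) and 0 in the interaction (0 genes of all). Under HFD 7 members passed with the block, including a member not called without it, and Srxn1, Gsta4, Gpx4 and Prdx2 did not. In tumors against WT liver 10 passed, including Gstm3, which was not called without the block, and Hmox1, Gsta4 and Gstp2 did not. The counts over all genes with the block are not given here for HFD or for tumors against WT liver.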
